A study of Schizosaccharomyces pombe with 26 samples.

Results

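The genes described are 9 *Schizosaccharomyces pombe* genes for the uptake or storage of ammonium, amino acids and peptides: *amt1*, *amt2*, *amt3*, *put4*, *per1*, *isp5*, *isp4*, *fnx1* and *fnx2*. They were chosen by name, as every spot of the intergenic region (IGR) and open reading frame (ORF) arrays that carries a member's symbol or systematic identifier. This gave 8 of 4962 IGR features, since *amt3* has none, and 10 of 4908 ORF features, since *fnx2* was spotted at 2 places. The spot names match 4790 genes in all. For each array type, histone H3 chromatin immunoprecipitation (ChIP) is held for 2 samples of delta-med15, which lacks Med15, 3 of delta-hrp1, which lacks Hrp1, and 2 of wildtype. ChIP of Med15-myc, from a strain with myc-tagged Med15, was measured against input DNA in 3 samples on each array type. All of these cells were in mid-log phase in the rich medium YES, which supplies several amino acids, among them glutamine, arginine and lysine. The labels give no further genotype for any strain, and they do not say that the replicates came from separate cultures, so a p-value here covers no more than sample-to-sample spread, which may be technical.

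Med15 is a subunit of the tail of Mediator, a complex that bridges gene-specific activators and the polymerase. Hrp1 belongs to the CHD1 family of chromatin remodellers. Ammonium and amino acid uptake in fission yeast is tuned to the nitrogen supply. Genes of poor nitrogen sources are held down while good sources such as ammonium or glutamine are at hand and come up when these run out. The GATA-type transcription factor Gaf1, which TORC1 signalling restrains, is known to act on several uptake genes. Ammonium enters through the Amt transporters and amino acids through permeases of the plasma membrane, while Fnx1 and Fnx2 move amino acids into the vacuole.

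Upstream sequences are shown for the 4 genes with a fitted difference in H3 signal past the threshold below. For *fnx2* that difference rests on different spots in different strains and cannot be read as a difference in H3. Each is the 250 bases before the RefSeq gene start in assembly ASM294v3, read 5′ to 3′ on the strand of the gene. Capitals mark GATAAG or its reverse complement CTTATC, a sequence that GATA factors can bind.

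amt1, chrIII:2068729-2068978, plus strand: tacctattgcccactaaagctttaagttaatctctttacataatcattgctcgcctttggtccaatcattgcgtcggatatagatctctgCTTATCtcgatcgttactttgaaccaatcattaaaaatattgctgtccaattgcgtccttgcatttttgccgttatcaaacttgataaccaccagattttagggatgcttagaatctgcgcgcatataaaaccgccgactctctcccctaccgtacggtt

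put4, chrI:5492914-5493163, plus strand: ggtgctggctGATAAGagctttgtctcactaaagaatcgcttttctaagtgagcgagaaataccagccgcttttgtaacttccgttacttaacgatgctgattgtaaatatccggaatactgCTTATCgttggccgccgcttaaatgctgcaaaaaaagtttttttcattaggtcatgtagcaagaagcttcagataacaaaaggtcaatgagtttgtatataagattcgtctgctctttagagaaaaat

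isp5, chrI:5466507-5466756, plus strand: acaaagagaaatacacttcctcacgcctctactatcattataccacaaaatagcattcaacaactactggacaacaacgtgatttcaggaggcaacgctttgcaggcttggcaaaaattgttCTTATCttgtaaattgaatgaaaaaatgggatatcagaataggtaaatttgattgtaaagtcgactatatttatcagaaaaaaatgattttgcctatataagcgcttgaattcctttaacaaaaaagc

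fnx2, chrII:2670079-2670328, minus strand: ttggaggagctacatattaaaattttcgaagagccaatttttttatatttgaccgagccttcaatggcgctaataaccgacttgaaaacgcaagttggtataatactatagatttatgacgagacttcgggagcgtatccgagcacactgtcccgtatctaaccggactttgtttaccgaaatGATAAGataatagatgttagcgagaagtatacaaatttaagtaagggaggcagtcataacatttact

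On either strand, 7 of the 9 members held the motif in this window, against 521 of the 5112 protein-coding genes searched, or 10.2%. *amt3* and *put4* held 2 copies each, *amt1*, *per1*, *isp5*, *fnx1* and *fnx2* held 1, and *amt2* and *isp4* held none. The match is a description of letters and says nothing about binding. No source used here gives the genome build of the spotted DNA or the side of its gene on which an IGR spot lies, so a window need not coincide with the spotted DNA. Chromatin was sheared to fragments of 600 to 1500 bp, so an IGR spot and the ORF spot next to it can report on the same fragments.

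Values of H3 are the authors' log2 values of the ChIP channel alone, with no division by input, set to 0 at each array's median. They are called H3 signal here, and they are not occupancy. Differences between strains come from a limma fit with strain and dye on all 7 samples, adjusted by Benjamini-Hochberg over all features of the array type with a threshold of 0.05. The 5 deletion arrays of each type also have scanner tables with input. The wildtype arrays have none here, so no wildtype value can be set against its own input.

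The wildtype columns correlated less with delta-hrp1 than delta-med15 did, on both array types. The ranges for wildtype with delta-med15 overlapped those between the deletions. On IGR arrays wildtype correlated with delta-med15 at r = 0.51 to 0.70 and with delta-hrp1 at 0.44 to 0.55. There delta-hrp1 correlated with delta-med15 at 0.60 to 0.73. On ORF arrays the 2 wildtype samples correlated with each other at r = 0.92 across features, with delta-med15 at 0.44 to 0.63 and with delta-hrp1 at 0.28 to 0.39, whereas delta-hrp1 correlated with delta-med15 at 0.57 to 0.68. With Med15-myc ChIP, a different antibody, delta-hrp1 H3 correlated at 0.53 to 0.74. All wildtype ChIP DNA was labelled in Cy3, so the dye term rests on the deletion arrays. The dates recorded with the scanner tables of delta-med15, delta-hrp1 and Med15-myc also fall apart by strain, so date and strain cannot be told apart. The median ChIP intensity was 612 to 12157 scanner units per array, over backgrounds of 0 to 4984. The number of arrays limits the precision. Samples of 2 strains often do not overlap here: delta-med15 and wildtype were apart at 71.5% of 4761 ORF and 70.7% of 4850 IGR features, delta-hrp1 and wildtype at 60.5% of 4742 and 49.0% of 4764, and delta-hrp1 and delta-med15 at 43.6% of 4745 and 39.2% of 4765. A statement below that strains did not overlap therefore describes a member and marks nothing particular to it. As a check of the labels, *hrp1* read -5.25, -6.00 and -4.53 in delta-hrp1, against 1.49 and 1.41 in wildtype. *med15* read -4.75 and -4.02 in delta-med15, against -1.78 and -1.45 in wildtype.

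Among the ammonium transporters, *amt1* (SPCPB1C11.01, chrIII:2068979-2071707) had higher H3 signal over its ORF in both deletions than in wildtype, where it read no higher than the spots named empty. Its ORF feature read -1.06 and -0.08 in delta-med15, 0.39, 0.93 and 0.87 in delta-hrp1, and -4.93 and -4.58 in wildtype. Every deletion sample lay above both wildtype samples by more than 3 log2 units. The 1308 empty spots carried only 2 distinct values on each wildtype array, so the spread of single empty spots is not known. These values were -5.19 and -4.90 in wildtype sample 1 and -4.62 and -4.35 in wildtype sample 2. The *amt1* ORF lay between them in each. In the Med15-myc columns the same spots read -0.05 to 1.74, so the name does not mark a low reading on every array. It ranked as the second lowest of 4785 measured ORF features in wildtype sample 1 and was among the 8 lowest in sample 2. The wildtype values of *amt1* also fell between those given above for the deleted genes, *hrp1* in delta-hrp1 and *med15* in delta-med15.

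Since wildtype lay between the 2 values carried by the empty spots, the size of the rise is not settled. Against the higher of these values in each wildtype sample, the mean of -0.57 in delta-med15 was 16.7-fold higher. That of 0.73 in delta-hrp1 was 41.0-fold higher. The spread of single empty spots is not known, so these folds are not firm lower bounds. The measured wildtype mean was -4.76. The fit gave adjusted p of 0.0125 for delta-med15 and 0.00173 for delta-hrp1 in limma. Under the 12 other fits tried, the delta-hrp1 rise kept its sign and passed in all 12. For delta-med15 the 12 are not all separate. Cy3 samples alone, without delta-med15 replicate 1 and without delta-hrp1 replicate 3 gave the same estimate and SE, 4.68 ± 0.47. The delta-med15 rise kept its sign in all 12 and passed in 6. Its adjusted p was 0.122 without wildtype replicate 1, 0.0676 with Cy3 samples alone, 0.178 without wildtype replicate 2, 0.0674 without delta-med15 replicate 1, 0.109 without delta-med15 replicate 2 and 0.0899 without delta-hrp1 replicate 3.

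The intergenic feature of *amt1* did not share the low wildtype reading. It read 2.41 and 1.96 in delta-med15, 1.37, 0.12 and 1.72 in delta-hrp1, and 1.35 and 0.94 in wildtype. The wildtype samples were thus well above their array median at the IGR spot and near the bottom of the array at the ORF spot. The fitted IGR differences from wildtype were 0.67 ± 0.68 for delta-med15 and -0.33 ± 0.59 for delta-hrp1, with adjusted p of 0.617 and 0.737 in limma. Of 4897 ORF features, 3 read under -4 in every wildtype sample that measured them and over -2 in all 5 deletion samples: *amt1*, *arg5*, which encodes the small subunit of the arginine-specific carbamoyl-phosphate synthase, and *thi2*, a thiamine biosynthesis gene. By the same limits, 6 ORF features were low in the deletions only. *arg5* and *thi2* were chosen after their values were seen, and *thi2* was measured in wildtype sample 2 alone. The *amt1* ORF spots carried DNA on the 8 arrays with scanner tables, where their input intensity was 1675 to 17095 scanner units, at least 2.20 times the local background. Whether the low wildtype reading belongs to the spot, the array or the strain was not tested.

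**Figure D1:**
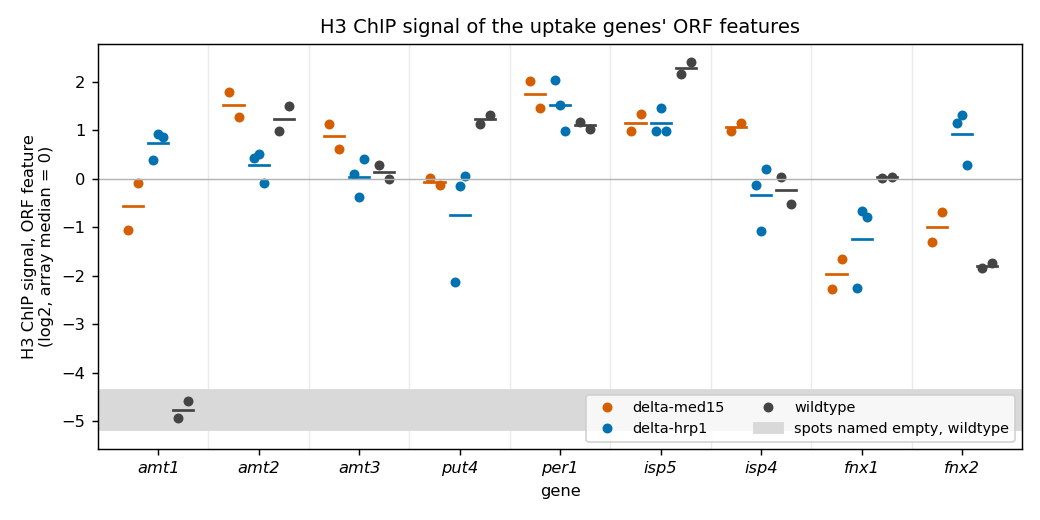
H3 ChIP signal (log2, array median set to 0) of the 9 genes' ORF features, with a point for each sample, a bar for the mean of each strain, and strains from left to right as delta-med15 (2 samples), delta-hrp1 (3) and wildtype (2). The grey band spans the 2 values that spots named empty carry on each wildtype array (-5.19 to -4.35), not the spread of single spots. The wildtype points of *amt1* (-4.93 and -4.58) lie inside it.

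The 2 other ammonium transporters did not pass against wildtype. The *amt2* ORF (SPAC664.14, chrI:1731069-1733268) read 1.78 and 1.27 in delta-med15, 0.43, 0.50 and -0.08 in delta-hrp1, and 0.98 and 1.496 in wildtype. All 3 delta-hrp1 samples were below both other strains, and the fitted difference was -0.92 ± 0.42 from wildtype (adjusted p 0.128, limma) and -1.26 ± 0.40 from delta-med15 (adjusted p 0.102). Without delta-hrp1 replicate 1, the difference from delta-med15 passed at -1.31 with an adjusted p of 0.0482. The *amt2* IGR feature read 0.16 and -0.53 in delta-med15, -1.71, -0.83 and 0.38 in delta-hrp1, and -0.34 and -2.41 in wildtype, so that the 2 wildtype samples spanned most of the range of all 7. The *amt3* ORF (SPAC2E1P3.02c, chrI:2924692-2926446) read 1.13 and 0.62 in delta-med15, 0.09, -0.38 and 0.40 in delta-hrp1, and 0.29 and 0.00 in wildtype. Its fitted differences from wildtype were 0.47 ± 0.42 for delta-med15 and -0.28 ± 0.37 for delta-hrp1, with adjusted p of 0.525 and 0.590 in limma. Of the ammonium transporters, the *amt1* ORF was the sole feature to pass against wildtype.

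Among the permeases of the plasma membrane, H3 signal fell in delta-hrp1 at the *put4* ORF and at the *isp5* intergenic feature. *put4* (SPAC869.10c, chrI:5493164-5495156) encodes a proline permease. Its ORF read 0.01 and -0.13 in delta-med15, -2.12, -0.15 and 0.06 in delta-hrp1, and 1.13 and 1.32 in wildtype. All 5 deletion samples were below wildtype, and delta-hrp1 replicate 1 was lower by about 2 log2 units than its fellows. Both spots of that replicate were flagged, and they were kept. The delta-med15 difference of -1.66 ± 0.71 did not pass (adjusted p 0.193, limma), but passed at -1.37 without delta-hrp1 replicate 1 (adjusted p 0.0339). The fitted fall in delta-hrp1 was -2.21 ± 0.62 (adjusted p 0.0336). Without delta-hrp1 replicate 1 the fall was -1.35, and without either wildtype sample it no longer passed, at adjusted p of 0.146 and 0.182. The *put4* IGR feature, at -1.11 and -0.84 in delta-med15, -1.37, -1.04 and -2.07 in delta-hrp1, and -1.15 and -0.76 in wildtype, was below the array median in every sample and gave no called difference.

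*isp5* (SPAC1039.09, chrI:5466757-5468649) encodes an amino acid permease first found among sexually induced genes. Its IGR feature read -0.38 and -0.79 in delta-med15, -2.08, -2.28 and -0.28 in delta-hrp1, and 0.43 and 0.72 in wildtype. All deletion samples were below wildtype, and delta-hrp1 replicate 3, the Cy5 sample, lay above both Cy3 samples of that strain. In delta-hrp1 both spots of replicate 1 were flagged, with ChIP intensities of 334 and 181 scanner units. In replicate 3, 1 of the 2 spots was flagged, and all of these were kept. The fitted fall in delta-hrp1 was -2.54 ± 0.57 (adjusted p 0.0272, limma), and the delta-med15 difference was -1.80 ± 0.65 (adjusted p 0.186). The call was lost without the dye term (-2.12, adjusted p 0.0531), without delta-hrp1 replicate 2 (adjusted p 0.0550) and without wildtype replicate 1 or 2 (adjusted p 0.188 and 0.245). The ORF of *isp5* read 0.98 and 1.34 in delta-med15, 0.98, 1.46 and 0.98 in delta-hrp1, and 2.16 and 2.40 in wildtype, where it was the highest of the members. Every deletion sample lay below both wildtype samples there too, but the fitted differences of -0.97 ± 0.42 for delta-med15 and -1.04 ± 0.37 for delta-hrp1 missed the threshold (adjusted p 0.200 and 0.0683). Without the dye term the delta-hrp1 one passed at -1.14 (adjusted p 0.0346).

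*isp5* and *put4* both lie near the right end of chromosome I, at 110 kb and 84.0 kb from it, whereas the nearest of the other 7 members to a chromosome end is *amt1* at 381 kb. *per1* (SPAP7G5.06, chrI:3749441-3751729), an amino acid permease, had high H3 signal over its ORF in every strain, with 2.02 and 1.46 in delta-med15, 2.04, 1.51 and 1.00 in delta-hrp1, and 1.17 and 1.03 in wildtype. Neither its ORF nor its IGR feature passed in any comparison.

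*isp4* (SPBC29B5.02c, chrII:1550293-1552791), an oligopeptide transporter, was high in delta-med15 on both array types. Its IGR feature read 2.66 and 1.95 in delta-med15, 0.49, 0.20 and 1.17 in delta-hrp1, and 0.63 and 0.71 in wildtype. Its ORF read 0.98 and 1.15 in delta-med15, -0.12, -1.08 and 0.21 in delta-hrp1, and 0.03 and -0.51 in wildtype. Both delta-med15 samples lay above all 5 others at both features, and the other strains overlapped. The fitted differences of delta-med15 from wildtype were 1.25 ± 0.59 at the IGR and 1.11 ± 0.54 at the ORF, and neither passed (adjusted p 0.286 and 0.245, limma). Those of delta-hrp1 from delta-med15 were -1.55 ± 0.50 at the IGR and -1.33 ± 0.45 at the ORF (adjusted p 0.138 and 0.117). Without delta-hrp1 replicate 1 these 2 passed, at adjusted p of 0.0304 and 0.0425. The IGR one also passed with arrays scaled to the same spread, at -1.63 (adjusted p 0.0496). A separate spot named as a long intergenic tile of *isp4*, which is not a member by the rule and was chosen after its values were seen, read differently: 2.60 and 2.32 in delta-med15, 1.088, 0.35 and 0.82 in delta-hrp1, and 3.16 and 4.63 in wildtype. There delta-hrp1 fell by 3.20 ± 0.62 from wildtype, with an adjusted p of 0.0196 from limma, so the 2 intergenic spots of this gene disagreed.

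**Figure D2:**
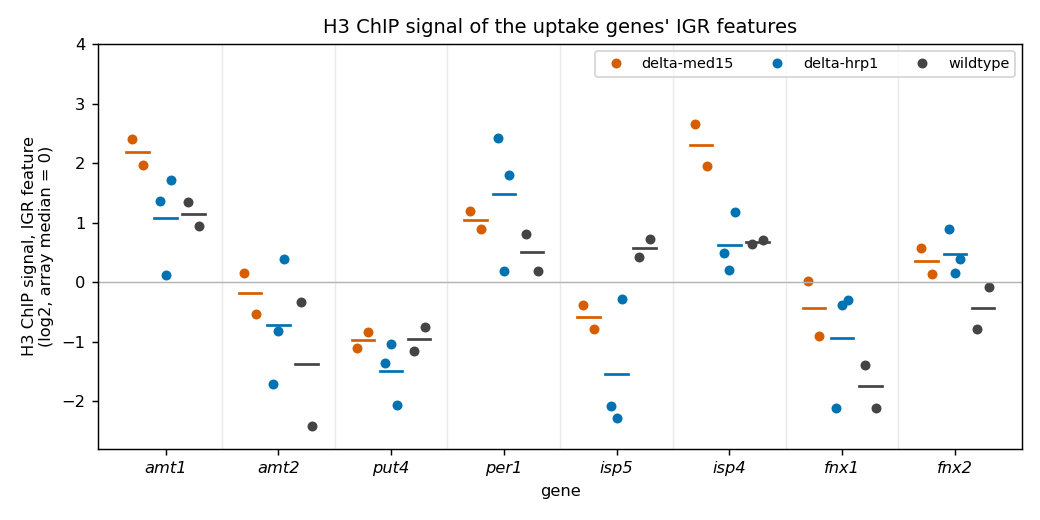
H3 ChIP signal (log2, array median set to 0) of the 8 IGR features, with a point for each sample, a bar for the mean of each strain, and strains from left to right as delta-med15 (2 samples), delta-hrp1 (3) and wildtype (2). The *isp5* deletion points all lie below wildtype (0.43 and 0.72), the *isp4* delta-med15 points (2.66 and 1.95) lie above all others of that gene, and the wildtype points of *amt1* (1.35 and 0.94) are above the array median.

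The vacuolar transporter genes are *fnx1* and *fnx2*. *fnx1* (SPBC12C2.13c, chrII:2444295-2446292) read -2.26 and -1.65 at its ORF in delta-med15, -2.26, -0.66 and -0.78 in delta-hrp1, and 0.01 and 0.04 in wildtype. All 5 deletion samples were below wildtype. The fitted differences of -2.05 ± 0.65 for delta-med15 and -1.30 ± 0.57 for delta-hrp1 did not pass (adjusted p 0.101 and 0.118, limma), and the delta-med15 one passed at -1.80 without delta-hrp1 replicate 1 (adjusted p 0.0144). Its IGR feature read 0.02 and -0.90 in delta-med15, -2.11, -0.39 and -0.30 in delta-hrp1, and -1.38 and -2.12 in wildtype, so that delta-med15 lay above wildtype and delta-hrp1 overlapped it. The fitted IGR differences of 0.84 ± 0.75 and 0.51 ± 0.65 did not pass (adjusted p 0.557 and 0.631).

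*fnx2* (SPBC3E7.06c, chrII:2668034-2670078) was spotted at 2 places on the ORF array, and its values do not come from the same spots in every strain. The deposited table carries 1 value at both places. On the 8 arrays with scanner tables, this value matched the mean of the unflagged spots of both places within 0.01 log2 units, in 171 of 171 cases over the 11 ORF names spotted at 2 places. The places differed in ChIP intensity, with 285 to 5268 scanner units at the first and 5525 to 23771 at the second. In delta-med15 no spot was flagged, so its value averages the dim and the bright place. In delta-hrp1 replicates 2 and 3 both spots of the first place were flagged, and the value is that of the bright place alone. In replicate 1 of that strain, 1 of the 2 spots of the first place was flagged. Which spots entered the wildtype values is not known here.

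With that limit, the *fnx2* ORF read -1.31 and -0.68 in delta-med15, 1.16, 1.32 and 0.29 in delta-hrp1, and -1.84 and -1.73 in wildtype. The fitted difference from wildtype passed in delta-hrp1 at 2.98 ± 0.36 (adjusted p 0.00531, limma) and did not pass in delta-med15 at 1.20 ± 0.41 (adjusted p 0.119). The delta-hrp1 call was lost without wildtype replicate 1 or 2, at adjusted p of 0.0578 and 0.0983. At the second place alone the signal was -0.61 and -0.05 in delta-med15 and 1.61, 1.32 and 0.29 in delta-hrp1. Since the spots behind the values differ, neither the fitted differences nor the order of the strains can be read as a difference in H3. The *fnx2* IGR feature read 0.58 and 0.14 in delta-med15, 0.89, 0.15 and 0.39 in delta-hrp1, and -0.78 and -0.08 in wildtype, so every deletion sample was above wildtype, with fitted differences of 0.73 ± 0.65 and 0.87 ± 0.57 that did not pass (adjusted p 0.556 and 0.318).

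Counted over the members, H3 signal on ORF arrays passed for 1 of 9 in delta-med15 (*amt1*, higher), where 5.19% of all 4774 ORF features passed. In delta-hrp1 it passed for 3 of 9 (*amt1* and *fnx2* higher, *put4* lower, with the limit on *fnx2* given above), where 27.1% of 4777 passed, so the share of members is near the background. On IGR arrays 0 of 8 passed in delta-med15, where 0.185% of 4876 passed, and 1 member had an unadjusted p under 0.05 in limma, as did 385 higher and 542 lower features (19.0%). In delta-hrp1 1 of 8 IGR members passed (*isp5*, lower), where 12.3% of 4877 passed. The median fitted ORF difference of the members was 0.47 for delta-med15 and -0.28 for delta-hrp1, against -0.02 and 0.03 over all ORF features. The median IGR difference was 0.62 and -0.03, against -0.08 and -0.14 over all IGR features. With *amt1* set against the higher empty value of each wildtype sample it is still the highest of the 9. The ORF medians of 0.47 and -0.28 could therefore not move, and they say nothing about the size of the *amt1* rise. The comparisons with wildtype share the wildtype samples. Between the deletions, 0 of 9 ORF members passed (0.459% of 4789 features), and 0 of 8 IGR members (0.0% of 4875 features). At an unadjusted p under 0.05 in limma there were 4 ORF members, beside 604 higher and 641 lower ORF features in all (26.0%), and 1 IGR member, beside 396 higher and 615 lower IGR features (20.7%).

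**Figure D3:**
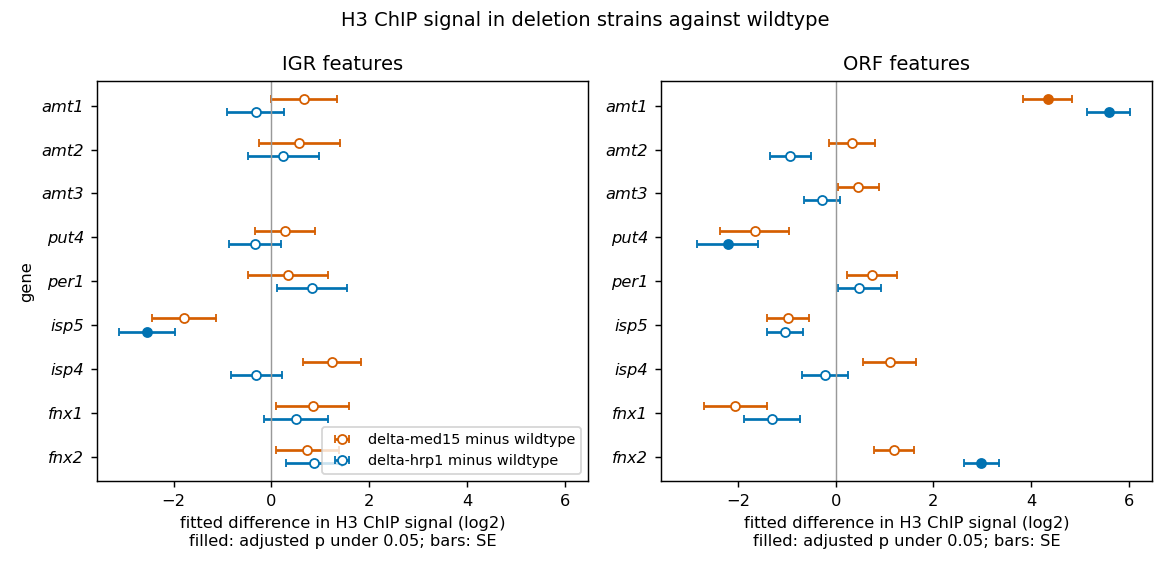
Fitted differences in H3 ChIP signal (log2, horizontal axis) of delta-med15 and delta-hrp1 from wildtype for each gene (vertical axis), with IGR features left and ORF features right. Points are limma estimates, bars are SE, and filled points passed an adjusted p of 0.05. The *amt1* ORF stands furthest to the right, where its wildtype values lie between those carried by empty spots and its size is not settled. The filled points below 0 are *isp5* (-2.54, IGR) and *put4* (-2.21, ORF) in delta-hrp1. The filled *fnx2* ORF point (2.98, delta-hrp1) rests on different spots in different strains and cannot be read as a difference in H3.

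**Figure D4:**
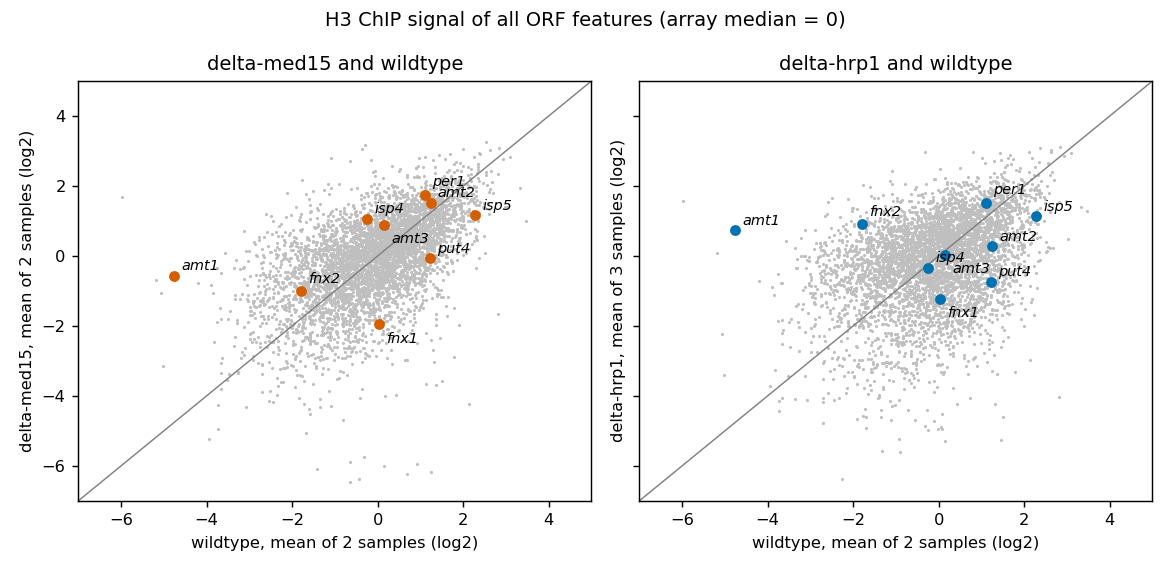
Mean H3 ChIP signal (log2, array median set to 0) of every ORF feature in delta-med15 (left) and delta-hrp1 (right), each on the vertical axis, against wildtype on the horizontal axis, with the uptake genes as coloured points and the line of equality. *amt1* lies at the far left of both panels with a wildtype mean of -4.76, while the other members lie within the cloud of features.

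Within the deletion strains, the ratio of H3 ChIP to input as scanned could be set beside the signal, and no member passed the test between them. At the *amt1* ORF the log2 ratio was 0.36 and 0.20 in delta-med15 and 0.42, 0.44 and -0.01 in delta-hrp1. These lie at percentiles 77.4 and 67.2 of all ORF features in delta-med15 and at 70.4, 77.8 and 48.6 in delta-hrp1. With both places of *fnx2* counted, the means of the members in delta-med15 ranged from -0.26 to 0.50 on ORF arrays. On IGR arrays they ranged from -0.90 to 0.64 in that strain. In delta-hrp1 they ranged from -0.38 to 0.64 on ORF arrays and from -0.79 to 0.53 on IGR arrays. *fnx1* had the lowest mean IGR ratio in delta-med15 (-0.62 and -1.19), and *isp4* the highest (0.31 and 0.96). The *per1* ORF lay above the array median in all 5 deletion samples, with 0.45 and 0.54 in delta-med15 and 1.17, 0.39 and 0.26 in delta-hrp1, and the *amt3* ORF below it in all 5, with -0.19 and -0.33 in delta-med15 and -0.21, -0.67 and -0.24 in delta-hrp1. At the *isp5* IGR feature the ratio was -0.95 and -1.44 in the Cy3 samples of delta-hrp1 and 2.67 in its sole Cy5 sample. The input there was 128.5 scanner units in the Cy5 sample, so dye, replicate and low input cannot be told apart. In delta-hrp1 the first place of *fnx2* read -2.33 and -3.33 in Cy3 and 5.19 in Cy5. Its Cy5 input was 45.5 scanner units. The *put4* ORF read -1.67 and -0.27 in Cy3 and 1.12 in Cy5. The *put4* IGR feature and the *isp4* ORF had the same signs. The signs were reversed at the *per1* and *fnx2* IGR features, the *amt1*, *amt2* and *isp5* ORFs, and the second place of *fnx2*. Dye and replicate cannot be told apart at these features either. No member passed between the deletions, with 0 of 8 IGR and 0 of 10 ORF features, none at an unadjusted p under 0.05 in limma. Of all features 0.0% of 4962 IGR and 0.0% of 4908 ORF features passed. At an unadjusted p under 0.05, 10 IGR features were higher and 4 lower, and 42 ORF features were higher and 20 lower.

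Med15-myc over input gave no called enrichment or depletion at the members. On IGR arrays 7 of 8 fitted log2 ratios were below 0, from -0.49 at *fnx2* to 0.13 at *isp4*, and 0 of 8 passed, none at an unadjusted p under 0.05 in limma, where 0.0% of 4962 features passed. At *amt1* the IGR ratio was -0.10, -0.83 and 0.76, at *isp4* 0.13, -0.65 and 0.90, and at *isp5* 0.34, 0.38 and -0.75. No IGR member had the same sign in all 3 samples. In replicate 3 both IGR spots of *amt1*, *amt2*, *put4*, *isp5*, *fnx1* and *fnx2* were flagged, and they were kept. Flags also fell on spots of every IGR member but *per1* in replicate 2. Over all IGR features, replicate 2 correlated with replicates 1 and 3 at -0.29 and -0.24 as scanned, and at 0.39 and 0.17 after normexp. Mixed signs thus mark nothing particular to the members. On ORF arrays 0 of 10 passed, where 0.0% of 4908 features passed, and *isp5* alone of the members had an unadjusted p under 0.05 in limma. Over all features, 30 IGR features were higher and 5 lower at that level, and 23 ORF features were higher and 59 lower.

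The *isp5* ORF read -0.91, -0.70 and -0.62 in the 3 Med15-myc samples, and the *isp4* ORF -0.80, -0.45 and -0.25. The *amt2* ORF, at 0.38, 0.01 and 0.96, was the third of the members with 1 sign throughout. The fitted value at *isp5* was -0.74 ± 0.23 (adjusted p 0.996, limma), and the processing moved it: -0.84 with normexp (adjusted p 0.129), -0.86 with normexp and loess (adjusted p 0.0343) and -0.01 in the ChIP channel alone (adjusted p 0.983). Over all ORF features the log2 ratio of replicate 2, which carries the ChIP DNA in Cy5, correlated with replicates 1 and 3 at -0.29 and -0.24 as scanned, and at 0.41 and 0.11 after normexp. The first place of *fnx2* read -0.80, 4.12 and -0.84, where the input of replicate 2 was 212 scanner units, and the second place -0.10, -0.51 and 0.81.

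**Figure D5:**
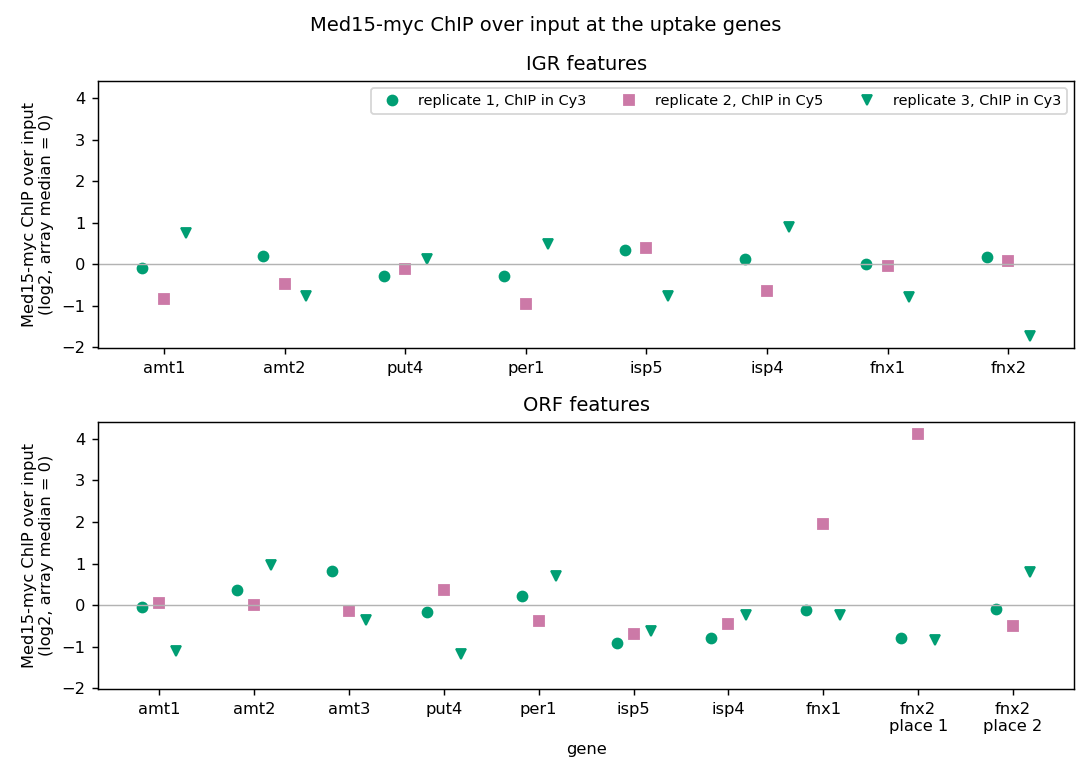
Log2 ratio of Med15-myc ChIP over input as scanned (vertical axis, array median set to 0) for IGR features (top) and ORF features (bottom), with a symbol for each of 3 replicates and a colour for the dye of the ChIP DNA. The *isp5* and *isp4* ORF points all lie below 0, and the replicates of most other features lie on both sides of it.

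The ORF features whose H3 profile over the 7 samples was most like that of *amt1*, by Euclidean distance after each profile's own mean was removed, were SPBPB10D8.01, *nfs1*, *mrz1*, *spi1* and *kap104*, at distances of 2.00 to 2.58, against a median of 6.26 over 4731 features. These 5 were chosen for likeness to *amt1*, so a rise in the deletions follows from the choice. Their fitted differences from wildtype were 3.021 to 3.50 in delta-med15 and 3.55 to 4.05 in delta-hrp1. For the *isp5* IGR feature the nearest were *alo1*, *mgm101*, *igo1*, *rpl1002* and *mam1*, at distances of 0.34 to 0.74 against a median of 3.27 over 4753 features.

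Of the 18 protein-coding genes flanking the members, 16 were measured on ORF arrays, and *wtf21* beside *amt1* and *emc5* beside *per1* were not analysed here. In delta-hrp1 8 of the 16 were called, 1 higher and 7 lower, where 27.1% of all ORF features were called. In delta-med15 2 of the 16 were called, both lower, against 5.19%.

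SPCPB1C11.02, an amino acid permease gene that lies 961 bases beyond *amt1*, read -3.65 and -2.40 in delta-med15, -6.64, -4.80 and -1.26 in delta-hrp1, and 1.30 and 1.31 in wildtype. It was called lower in delta-hrp1 (adjusted p 0.0111, limma), and the delta-med15 difference of -5.34 ± 1.34 did not pass (adjusted p 0.0591). The highest value carried by empty spots was -6.74 in delta-hrp1 replicate 1, -4.84 in replicate 2 and -4.22 in replicate 3. The first 2 samples thus read at about the level of empty spots, and the size of the fall is not settled. The gene also read -3.73, -2.36 and -3.48 in the ChIP channel of Med15-myc.

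Beside *fnx1*, *ucp3* fell in both deletions, with -2.21 ± 0.43 in delta-med15 and -2.65 ± 0.37 in delta-hrp1 (adjusted p 0.0323 and 0.00625). *cat1*, a cationic amino acid permease gene beside *put4*, also fell in both, with -2.47 ± 0.49 in delta-med15 and -1.53 ± 0.43 in delta-hrp1 (adjusted p 0.0334 and 0.0336). Called lower in delta-hrp1 and not called in delta-med15 were SPAC664.13 beside *amt2* at -2.61 ± 0.59 (adjusted p 0.0175), *mmf2* and SPAC1039.08 on either side of *isp5* at -1.68 ± 0.37 and -1.498 ± 0.48 (adjusted p 0.0166 and 0.0492), and *mic60* beside *fnx2* at -1.41 ± 0.44 (adjusted p 0.0473). SPAC2E1P3.01, whose annotation overlaps that of *amt3*, was the one flank called higher in delta-hrp1, at 1.775 ± 0.39 (adjusted p 0.0170). Not called in either deletion were *mdv1*, *Tf2-3*, SPAC869.09, *rpl1002*, *atf1*, *rpl26*, *glo1* and SPBC3E7.07c, at -1.25 to 1.06 in delta-hrp1 with adjusted p of 0.0627 to 0.833.

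Other transporters and genes of nitrogen use were described from 4 lists, whose counts are to be read against the 27.1% of ORF features called in delta-hrp1 and the 5.19% called in delta-med15. Of 15 measured ORF features of other permeases, a list that also holds genes for the transport of other compounds, 3 were called higher (SPAC1039.01, SPBC15C4.04c and SPBC359.01) and 4 lower in delta-hrp1. The lower ones were SPCPB1C11.02, *cat1*, the thiamine transporter gene *thi9* at -2.50 ± 0.36, and *fio1*, an iron transport gene, at -1.63 ± 0.48. In delta-med15 1 of 15 was called, *cat1*. Of 10 from the list of peptide, urea and related transporters, which also holds other genes, 1 rose (SPBC1683.12) and 2 fell in delta-hrp1. Those that fell were *pgt1*, a glutathione transporter, at -2.25 ± 0.47 and *thi7* at -1.33 ± 0.41. Of 9 nitrogen assimilation enzymes, the urease accessory gene *ure4* alone was called and fell in both deletions, with -2.92 ± 0.58 in delta-med15 and -2.63 ± 0.51 in delta-hrp1. Of 13 nitrogen signalling genes 1 was called, *pub1*, a ubiquitin ligase gene that acts on permeases, at 1.54 ± 0.47 in delta-hrp1. The median fitted ORF difference in delta-hrp1 was -0.18 for the permeases, 0.10 for the peptide and related transporters, -0.21 for the enzymes and -0.30 for the signalling genes, against 0.03 over all features. In delta-med15 these medians were -0.27, 0.35, -0.60 and -0.15 in the same order of lists, against -0.02.

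On IGR arrays, where 0.185% of all features were called in delta-med15 and 12.3% in delta-hrp1, no feature of these lists was called in delta-med15, and every one called in delta-hrp1 was lower. They were 1 of 15 permeases (*meu22*, -2.44 ± 0.57), 3 of 8 from the list of peptide and related transporters, and 3 of 10 assimilation enzymes. Those of the peptide list were SPAC1399.02, SPBC23G7.13c and *xpa1*, which is not a transporter gene. The enzymes were *gln1*, glutamine synthetase, at -2.94 ± 0.61, *gdh1*, glutamate dehydrogenase, at -2.90 ± 0.55, and *uga1*, 4-aminobutyrate aminotransferase, at -2.18 ± 0.54, with adjusted p of 0.0217, 0.0190 and 0.0334 in limma. No nitrogen signalling gene of 10 was called there. Of all IGR features called in delta-hrp1, 183 of 600 were higher. The median fitted IGR difference in delta-hrp1 was -0.33 for the permeases, -1.05 for the peptide and related transporters, -0.20 for the enzymes and 1.094 for the signalling genes, against -0.14 over all features.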

How the data were processed

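Of 26 samples, the 20 on spotted arrays were used. Scanner tables give uncorrected median spot and background intensity for both dyes, per the file headers. The deposited value table holds log2 values. Set against the scanner tables they are the authors' ChIP channel less background over a constant, with a floor at -6.64 and no division by input; for wildtype this is inferred. No source used here names the software or build. Control spots were left out, duplicate spots averaged and arrays centred on their median, and floor values treated as missing. Beyond what the deposited values already leave out, no spot was dropped for a flag. limma 3.58.1 in R 4.3.3 fitted strain and dye to 7 H3 samples, strain and dye to the H3 over input ratios of 5, and the mean of 3 Med15-myc ratios as scanned, with two-sided p-values adjusted by Benjamini-Hochberg. The fit was also run on simulated data with complete values and independent noise of equal spread. Such data hold no dye effect, floor or flags, so the run checks the code alone. H3 signal was fitted in place of ratios because wildtype has no input here. Alternatives were no dye term, Cy3 samples alone, floor values kept, arrays scaled to the same spread, the replicate block, normexp with an offset of 50, normexp and loess, the ChIP channel alone, and each sample left out.

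Gene names were matched to RefSeq: 4579 IGR names matched 1 gene, 16 several and 365 none, and 4649, 13 and 235 ORF names. RNA samples were not analysed here, since no table naming the probe sets was used. The members and lists were chosen with earlier results of these data known. Named are all features of the 9 members, the protein-coding genes on either side of each (ORF), the 5 features most like the member with the largest H3 difference on each array type, the list members that passed, and *med15* and *hrp1*.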

Additional observations from a re-analysis of the deposited data

How the results depend on the processing

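Of 87 member differences, 5 were called, the *fnx2* ORF among them with the limit given above. None of these 5 changed sign under any alternative, while 45 of the 87 changed sign under at least 1 and have no settled direction. The sole change of direction past the threshold was Med15-myc at the *fnx1* ORF, at -1.18 with the ChIP channel alone. Counts of called features depended strongly on the processing, and the cause was not tested. On IGR arrays, delta-med15 against wildtype gave 9 calls, 83 without the dye term, 0 with Cy3 samples alone, 17 with floor values kept, 407 with arrays scaled (167 higher and 240 lower) and 0 to 575 with a sample left out, the highest without delta-hrp1 replicate 1. Delta-hrp1 against wildtype gave 600, 352 with floor values kept, 972 scaled and 1 to 900 with a sample left out, the lowest without wildtype replicate 1. Between the deletions there were 0, 5 with floor values kept, 433 scaled and 0 to 820, the highest without delta-hrp1 replicate 1. On ORF arrays, delta-med15 gave 248, 665 without the dye term, 2 with Cy3 alone, 515 scaled and 1 to 815 with a sample left out, the highest again without delta-hrp1 replicate 1. Delta-hrp1 gave 1294 and 3 to 1386, the lowest without wildtype replicate 2. Between the deletions there were 22, 332 without the dye term, 1 with Cy3 alone, 35 with floor values kept, 536 scaled (238 higher and 298 lower) and 1 to 861. H3 over input gave 0 calls, 3 IGR with normexp, 1 ORF with loess, 2 ORF with the ChIP channel alone, and 0 to 2 on each type with a sample left out. Med15-myc gave 0, and 117, 141 and 368 IGR and 23, 129 and 1631 ORF calls with normexp, with loess and with the ChIP channel alone, but 0 with any sample left out.

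The replicate block gave 49 ORF calls between the deletions (9 higher and 40 lower), and 11 for H3 over input on ORF arrays without the dye term, which could not be fitted with it. The *fnx1* ORF passed in delta-hrp1 under the block at -1.49, and no other member call changed with it. Samples with the same number had deviations that correlated at 0.03 to 0.33, over 2 pairs for each comparison, so the numbers were not taken as pairing. A sample left alone in its strain was assumed to vary like the others.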
